A study of Mus musculus with 4 samples.

Results

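The cells described here are 294 leukocytes from mouse fibrosarcomas that carried transcripts of Egln3 or Adm together with the macrophage and monocyte receptor Csf1r. They were chosen by their own counts of unique molecular identifiers (UMIs, 1 per captured RNA molecule). A cell needed at least 200 genes, at most 10% of its UMIs from mitochondrial genes, at least 3 UMIs of Adm and Egln3 together and at least 1 of Csf1r. It could hold no UMI of Apol7c or Cd163, at most 1 of Ocstamp and Cdh1 together, at most 2 of Mki67 and Top2a together and at most 1 of Cd3d, Cd3e and Cd3g together. Of 30504 barcodes, 27705 passed the limits on genes and mitochondrial UMIs, and 294 of these met every criterion. They are called Egln3/Adm cells below, because Egln3 brought most of them in: 273 held at least 3 UMIs of Egln3 alone, 17 held at least 3 of Adm alone, and 255 (86.7%) held no Adm UMI. Their working name was hypoxic myeloid cells, and that name rests on transcripts alone, since no oxygen level was measured.

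The study compared tumours of a mouse fibrosarcoma that carried Cas9 without a knockout (Cas9 Control) with tumours that lacked Raldh1 and Raldh3 (Raldh1/3 DKO), the retinaldehyde dehydrogenases that make retinoic acid, encoded by Aldh1a1 and Aldh1a3. All tumours were untreated and were taken on day 11 after implantation. Live CD45+ cells were sorted and run on the 10x Genomics 3′ v3 chemistry. Each group had 2 libraries, each a pool of 2 tumours, so that 4 tumours stood behind each group, and the p-values below measure the spread between such pools. Values given in fours are in the order control 1, control 2, DKO 1, DKO 2.

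Egln3 encodes the prolyl hydroxylase PHD3, which marks the alpha subunits of the hypoxia-inducible factors (HIFs) for degradation when oxygen is present, and its gene is itself a HIF target. Adm encodes adrenomedullin, a vasodilator peptide that is also induced by HIF. When oxygen is low the alpha subunits persist, pair with HIF1B and bind a short DNA element, and the genes they switch on move glucose use towards lactate, recycle mitochondria and call in new vessels. Macrophages and monocytes are known to gather in poorly perfused parts of solid tumours, where these genes are high.

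The element bound by HIF has the core ACGTG or GCGTG, which was searched on both strands of the 250 bases before each gene's start in RefSeq (build GRCm38.p6). The metal response core TGCACNC or TGCGCNC and the antioxidant response core TGACNNNGC were searched in the same way. The hypoxia core was in 38.6% of all 32851 promoters, the metal core in 21.4% and the antioxidant core in 10.2%. For a list of 30 genes known as HIF targets, 22 had a promoter in the table, and 24 of their 31 promoters (77.4%) held the hypoxia core. Of the 25 listed genes of glycolysis and glucose transport, 24 were matched, and 27 of 36 promoters (75.0%) held it. The metal core was in 41.9 and 38.9% of the promoters of these 2 lists, and the antioxidant core in 12.9 and 11.1%. For the 25 genes with the highest ratios in these cells, of which 19 were matched, 12 of 25 promoters (48.0%) held the hypoxia core, 4 the metal core and 3 the antioxidant core. Without the collagen-positive cells, described further on, the highest-ranking 25 had 17 matched genes, and the counts were 14 (56.0%), 8 and 3 of 25. The 6 promoters printed belong to genes that the results turn on: the 2 genes of the rule, the HIF targets Bnip3 and Pgk1, the metallothionein Mt2, and Cxcl3, the gene that differed most clearly between the tumours. They are read 5′ to 3′ along the gene, and capitals mark any match of the 3 cores on either strand. CACGTG holds a match on each strand and counts as 2.
Egln3: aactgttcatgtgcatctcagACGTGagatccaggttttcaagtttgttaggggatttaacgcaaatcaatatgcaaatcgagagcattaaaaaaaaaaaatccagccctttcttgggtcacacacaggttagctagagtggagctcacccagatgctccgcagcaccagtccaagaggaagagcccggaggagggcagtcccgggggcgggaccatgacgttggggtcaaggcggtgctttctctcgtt
Adm: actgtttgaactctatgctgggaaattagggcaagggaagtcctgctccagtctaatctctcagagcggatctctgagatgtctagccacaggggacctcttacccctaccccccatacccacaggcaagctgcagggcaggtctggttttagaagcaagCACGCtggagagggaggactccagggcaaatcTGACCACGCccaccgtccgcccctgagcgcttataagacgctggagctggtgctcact
Bnip3: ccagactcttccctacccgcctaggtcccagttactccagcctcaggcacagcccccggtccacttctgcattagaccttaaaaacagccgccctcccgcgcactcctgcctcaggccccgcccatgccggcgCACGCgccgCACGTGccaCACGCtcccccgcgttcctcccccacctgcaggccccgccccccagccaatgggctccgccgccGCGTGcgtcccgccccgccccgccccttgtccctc
Pgk1: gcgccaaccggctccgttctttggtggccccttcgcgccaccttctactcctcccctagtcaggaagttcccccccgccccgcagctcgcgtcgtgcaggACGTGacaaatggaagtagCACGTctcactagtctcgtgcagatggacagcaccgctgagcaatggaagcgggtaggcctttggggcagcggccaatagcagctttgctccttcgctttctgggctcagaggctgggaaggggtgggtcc
Mt2: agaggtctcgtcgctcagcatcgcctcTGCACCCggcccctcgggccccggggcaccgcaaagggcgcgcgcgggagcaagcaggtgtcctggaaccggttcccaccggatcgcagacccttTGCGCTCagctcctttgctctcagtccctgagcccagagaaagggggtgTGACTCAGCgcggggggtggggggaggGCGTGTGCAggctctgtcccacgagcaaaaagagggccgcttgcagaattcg
Cxcl3: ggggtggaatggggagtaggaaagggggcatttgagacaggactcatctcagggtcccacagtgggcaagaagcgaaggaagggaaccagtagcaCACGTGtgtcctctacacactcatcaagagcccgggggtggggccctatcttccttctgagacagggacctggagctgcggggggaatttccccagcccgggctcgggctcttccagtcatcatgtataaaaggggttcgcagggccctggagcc
These are chr12:54203875-54204124 on the minus strand (Egln3), chr7:110627407-110627656 on the plus strand (Adm), chr7:138909507-138909756 on the minus strand (Bnip3), chrX:106186850-106187099 on the plus strand (Pgk1), chr8:94172368-94172617 on the plus strand (Mt2) and chr5:90785851-90786100 on the plus strand (Cxcl3). The Egln3 window held 1 hypoxia core, Adm 2, Bnip3 5, Pgk1 2, Mt2 1 and Cxcl3 2. The Mt2 window also held 3 metal cores, 1 of which overlapped its hypoxia core, and 1 antioxidant core. In the Adm window 1 hypoxia core overlapped an antioxidant core. A match is a stretch of letters and does not show that a factor was bound there.

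The libraries kept 8276, 8005, 6565 and 4859 cells, with totals between 55917920 and 77760750 UMIs. The Egln3/Adm cells numbered 73, 88, 81 and 52 and held 797584, 838340, 945950 and 515993 UMIs. Their median depth was 8491, 7964, 8222 and 8663 UMIs per cell, against 7585, 8071.5, 6754 and 8032 in the 7168 other eligible myeloid cells, which met every other criterion and held no UMI of Adm or Egln3. Pairs of libraries shared between 20 and 38 barcodes, at most 0.626% of the smaller library, and none of these was an Egln3/Adm cell. Aldh1a1 had no UMI in the Egln3/Adm cells of any library, which allows up to 0.968 CPM over all of them (CPM is a gene's UMIs scaled to a common total of UMIs in each sum of cells), and Aldh1a3 was at 0, 3.58, 0 and 0 CPM. The knockout was made in tumours and these are sorted leukocytes, so the values do not check it. A doublet caller marked 9 of the 294 cells (3.06%) against 6.38% of the others, and these cells were kept.

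Leukocyte and myeloid markers were present. Ptprc, which encodes the sorted antigen CD45, was at 480, 524, 408 and 558 CPM, and Itgam (CD11b) at 656, 753, 484 and 599 CPM. The macrophage complement gene C1qa was at 1370, 1461, 1736 and 1417 CPM. The natural killer gene Ncr1, the B-cell gene Cd79a and the basophil and mast-cell genes Mcpt8 and Ms4a2 had no UMI in these cells. Of the other markers of those cell types, Trbc2 had 16, 6, 5 and 6 UMIs, Nkg7 3, 2, 5 and 2, Trac 2, 0, 1 and 10, Ms4a1 2 in control 2 alone and Cpa3 1 in DKO 1 alone. Of the 2 markers given with the name beside Adm and Egln3, the metallothionein Mt2 was at 198, 291, 223 and 603 CPM and the heme oxygenase Hmox1 at 619, 777, 626 and 1781 CPM. Both were high in DKO 2, and the control and DKO values overlapped.

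A set of 9 cells stood apart. They held 3 or more UMIs of the matrix genes Col1a1, Col1a2, Col3a1 and Sparc, which fibroblasts and fibrosarcoma cells make, and they numbered 2, 3, 3 and 1. They carried 98.1, 99.5, 99.7 and 99.5% of those matrix UMIs and 9.97, 9.16, 20.4 and 6.14% of all UMIs of the Egln3/Adm cells. All 14 tumour and fibroblast transcripts listed were detected, and their summed level was 711, 1633, 1746 and 3618 CPM, against 22.2 to 31.8 CPM in the other eligible cells. Pooled, the 9 cells had Ptprc at 36.7 CPM, Arg1 at 435 CPM and Col1a2 at 2829 CPM, whereas the remaining 285 had Ptprc at 546 CPM and Col1a1 at 1.84 CPM (5 UMIs). Of the 9, 5 held an Adm UMI, against 34 of the remaining 285. These collagen-positive cells fitted the rule but not the myeloid label, and the values without them are given beside the results that they change most.

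The Egln3/Adm cells made up 0.882, 1.10, 1.23 and 1.07% of all cells, with 95% Clopper-Pearson intervals of 0.692 to 1.11, 0.883 to 1.35, 0.981 to 1.53 and 0.80 to 1.40%, which cover counting error only. The 4 values were close together, with means of 0.991% ± 0.154 in control and 1.15% ± 0.116 in DKO (SD, n = 2 libraries each; log2 ratio 0.22, exact permutation p = 0.667, two-sided). This closeness depended on the other criteria of the rule. At least 3 UMIs of Adm and Egln3 were held by 136, 171, 229 and 242 cells, or 1.64, 2.14, 3.49 and 4.98% of all cells. Both DKO libraries lay above both controls in that wider count, and 73, 88, 81 and 52 of its cells met the other criteria. The difference in the wider count was not tested. Among the eligible myeloid cells, which met every criterion apart from Adm and Egln3, the share was 2.58, 2.55, 5.41 and 6.19% (intervals 2.03 to 3.23, 2.05 to 3.14, 4.32 to 6.69 and 4.66 to 8.04%). Both DKO libraries lay above both controls, with means of 2.57% ± 0.0170 and 5.80% ± 0.549 (log2 ratio 1.18, exact permutation p = 0.333, two-sided, which is the smallest p that 2 libraries against 2 can give). Without the collagen-positive cells the log2 ratios were 0.22 and 1.18. The denominators moved in the opposite direction: 2832, 3446, 1496 and 840 cells were eligible. Of the Csf1r-positive cells, 5.38, 5.57, 23.1 and 19.6% failed the criterion on Apol7c, and 31.4, 22.4, 38.4 and 46.1% failed that on Ocstamp and Cdh1. Fewer eligible cells of other kinds and more Egln3/Adm cells cannot be told apart in a share.

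Cells were also thinned to 4000 UMIs each, which left out 20 Egln3/Adm cells and 1222 other eligible ones with fewer UMIs. The rule was then applied again to the thinned counts. It was met by 29, 31, 30 and 25 cells, and 3119, 3451, 1777 and 1134 cells were eligible. Thinning can also remove the UMIs that exclude a cell, so these are not the same classes at equal depth. The shares were 0.461, 0.497, 0.599 and 0.637% of all cells and 0.930, 0.898, 1.69 and 2.20% of eligible cells. The order of the groups was kept, with log2 ratios of 0.37 and 1.09. The same count of at least 3 UMIs of Adm and Egln3 was met by 2.05, 2.18, 5.91 and 10.5% of the cells with at least 3 UMIs of Ocstamp and Cdh1, which mark another macrophage state, and here too both DKO libraries lay above both controls. Among cells with at least 2 Cd163 UMIs, the mark of a resident-type macrophage, it was 4.02, 3.09, 4.71 and 7.33%. Both DKO libraries again lay above both controls, but on few cells: 7 of 174, 8 of 259, 4 of 85 and 17 of 232. Among cells with at least 2 Apol7c UMIs it was 0, 2.33, 2.19 and 4.81%, and there the groups overlapped. For each of these 3 classes the difference between control and DKO was not tested.

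**Figure D1:**
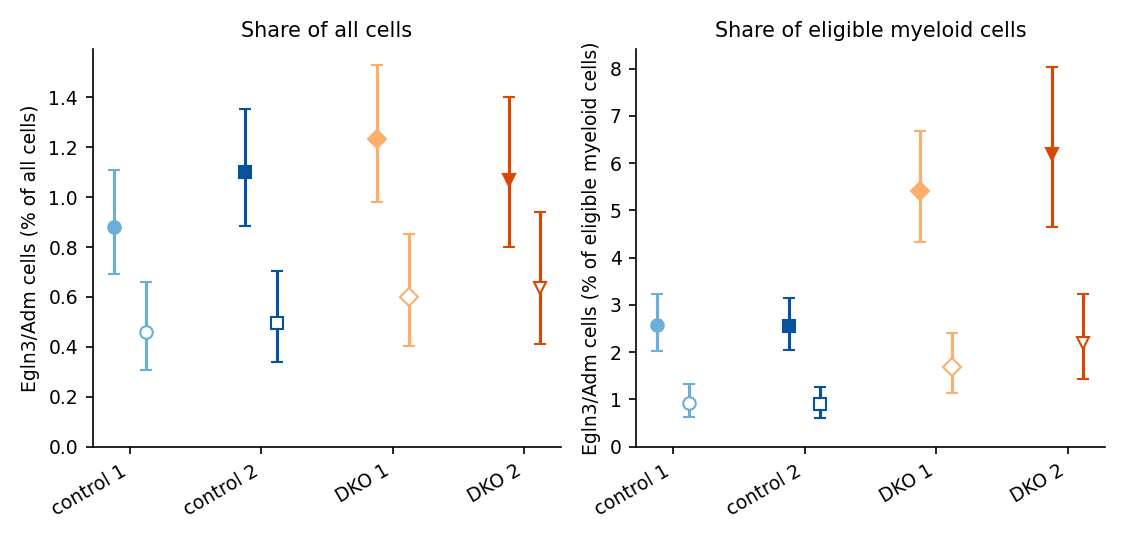
Egln3/Adm cells as a percent of all cells (left) and of eligible myeloid cells (right) in each of the 4 libraries, with 95% Clopper-Pearson intervals. Filled points are all cells. Open points are cells thinned to 4000 UMIs, with the rule applied again to the thinned counts. On the right the DKO points (5.41 and 6.19%) lie above the control points (2.58 and 2.55%), and on the left the libraries lie between 0.882 and 1.23%.

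Compared with the other eligible myeloid cells, the Egln3/Adm cells had higher levels of nearly the whole list of HIF targets. Because the cells were chosen on 2 HIF targets, these ratios describe the chosen cells and were not tested. Of 28 measured HIF targets other than the genes of the rule, 23 were higher in all 4 libraries and none was lower in all 4, with a median log2 ratio of 1.45, against a median of -0.12 and a share of 12.3% higher in all 4 libraries over the 10601 genes measured. Without the collagen-positive cells 22 of 28 were higher and 1 was lower in all 4, with a median of 1.16. The 5 that were not higher in all 4 were Narf, Plod1, Angptl4, Car9 and Epas1, the last of which encodes HIF2A. Plod2, which was higher by 3.64, was lower by 0.47 without the collagen-positive cells.

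Bnip3, which encodes a receptor for the removal of mitochondria, was at 456, 413, 503 and 915 CPM in Egln3/Adm cells and at 83.9, 106, 152 and 107 CPM in the other cells (median log2 ratio 2.19). Every Egln3/Adm value was above every other value, and DKO 2 was the highest. Ndrg1, a HIF target linked to growth arrest and differentiation, was at 298, 388, 378 and 562 CPM against 47.8, 59.9, 94.7 and 51.8 CPM (median 2.64). Ero1l, an oxidase of disulfide bond formation, was at 494, 573, 431 and 1025 CPM against 81.7, 111, 130 and 82.1 CPM (median 2.47). Hilpda, which slows the breakdown of lipid droplets, was at 572, 688, 626 and 512 CPM against 86.9, 182, 263 and 61.4 CPM (median 2.31). Vegfa, the main growth factor of vessels, was at 486, 400, 526 and 595 CPM against 152, 148, 269 and 158 CPM (median 1.55). In each of these genes the 2 kinds of cell did not overlap. Hif1a itself, whose product is set mostly by degradation, was at 629, 485, 494 and 502 CPM against 398, 474, 427 and 470 CPM (median 0.15).

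Most genes of glucose use were also higher. Of 25 glycolysis genes, 20 were higher in all 4 libraries and none lower, with a median log2 ratio of 0.91 (0.97 without the collagen-positive cells). The glucose transporter Slc2a1 was at 386, 398, 343 and 409 CPM against 95.7, 122, 143 and 96.1 CPM (median 1.85). The kinase Pgk1 was at 1289, 1384, 1631 and 1552 CPM against 549, 706, 733 and 543 CPM (median 1.19), and the glycogen synthase Gys1 had a median of 2.10. Pfkfb4 was the gene of the list with the lowest median, at -0.30. Of 21 genes of oxidative phosphorylation and the TCA cycle, 15 were lower in all 4 libraries, as were 13 of 13 transcripts of the mitochondrial genome (medians -0.27 and -0.40), where 24.4% of all genes measured were lower in all 4. The share of UMIs from mitochondrial genes was 2.94, 2.75, 2.98 and 2.66% per cell (median) against 3.73, 3.47, 3.66 and 3.90% in the other cells. Its part in these ratios was not tested.

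These levels formed a gradient and had no step at the threshold. The summed HIF list had a median over libraries of 2930 CPM in eligible cells without an Adm or Egln3 UMI, 4701 CPM in the 847 cells with 1, 5680 CPM in the 305 cells with 2, 6802 CPM in the 196 with 3 or 4 and 8269 CPM in the 98 with 5 or more. The glycolysis list went through 7587, 10881, 12711, 13745 and 16195 CPM over the same bins. C1qa was lower along the first 4 bins, at 2475, 2185, 1799 and 1431 CPM, and stood at 1511 CPM in the last. Just outside the rule lay the 305 eligible cells with 2 UMIs and just inside it 128 with 3; Mt2 was at 166 CPM with 2 UMIs and at 164 CPM with 3 or 4. The median depth was also higher in the later bins, going from 7735.5 through 8209, 8293 and 8121 to 8661.5 UMIs per cell. The last bin held 25, 26, 29 and 18 cells. The part of depth in these levels was not tested.

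**Figure D2:**
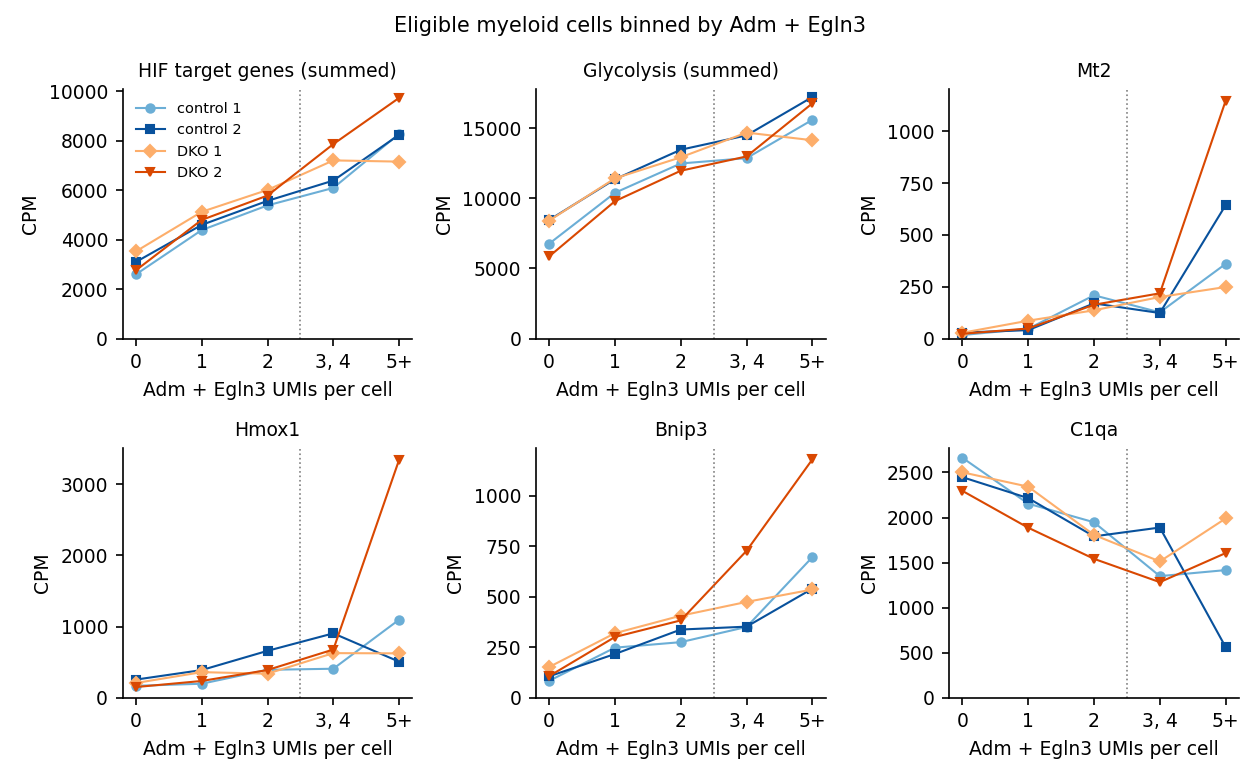
Level (CPM) of the summed HIF and glycolysis lists and of Mt2, Hmox1, Bnip3 and C1qa in eligible myeloid cells binned by their UMIs of Adm and Egln3 (0, 1, 2, 3 to 4, and 5 or more), 1 line per library; the dotted line marks the threshold of the rule. The HIF list has medians from 2930 CPM at 0 UMIs to 8269 CPM at 5 or more, and DKO 2 reaches 3343 CPM of Hmox1 and 1147 CPM of Mt2 in the last bin.

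Metal-binding and heme genes were part of the profile but not as a whole family. Mt2 was at 17.1, 28.9, 28.1 and 23.0 CPM in the other cells (median log2 ratio 3.37), Mt1 had a median of 1.38, and Hmox1 was at 168, 256, 208 and 151 CPM in the other cells (median 1.74). Of 23 metallothionein, heme and antioxidant genes, 8 were higher and 4 lower in all 4 libraries, where 12.3 and 24.4% of all genes measured were, and the list's median was 0.15 (0.26 without the collagen-positive cells). An Mt2 UMI was found in 28.6% of the Egln3/Adm cells and in 9.35% of the other cells, and after thinning in 22.6 and 5.84%. T cells, which serve as the level of free RNA (5499 cells with a median of 5306 UMIs), had 5.35%, or 4.15% in the 4028 that could be thinned. For Hmox1 the shares were 79.6 and 46.2%, thinned 64.2 and 32.5%, with 4.47% (thinned 2.56%) in T cells. Most Egln3/Adm cells therefore held an Hmox1 UMI and a minority an Mt2 UMI.

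Among the 25 genes with the highest ratios, the inducible nitric oxide synthase Nos2 was the first that did not come from the collagen-positive cells. It was at 469, 270, 344 and 300 CPM against 19.3, 24.6, 57.8 and 6.74 CPM (median log2 ratio 3.97, and 4.09 without those cells), so that the 2 kinds of cell were far apart in each library. Arg1, whose product uses the same substrate as Nos2, was at 6797, 7447, 6233 and 8196 CPM against 3329, 4375, 4083 and 2207 CPM (median 0.90). The costimulatory receptor Tnfrsf9 had a median of 2.52, the activin subunit Inhba 1.97, the cytokine receptor Il7r 1.80, the transcription factor Ets1 1.80 and the elastase Mmp12 1.79. The collagens and matrix genes Col3a1 (6.47), Col1a2 (5.91), Bgn (5.44), Sparc (5.42), Dcn (5.21), Fbln2 (5.10) and Serpinh1 (4.95) led the ranking, and without the collagen-positive cells the collagen and matrix genes among the 25 had medians between -0.62 and 0.32. In all, 598 of 10601 genes (5.64%) were at least 2-fold higher by the median, and 207 without those cells.

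**Figure D3:**
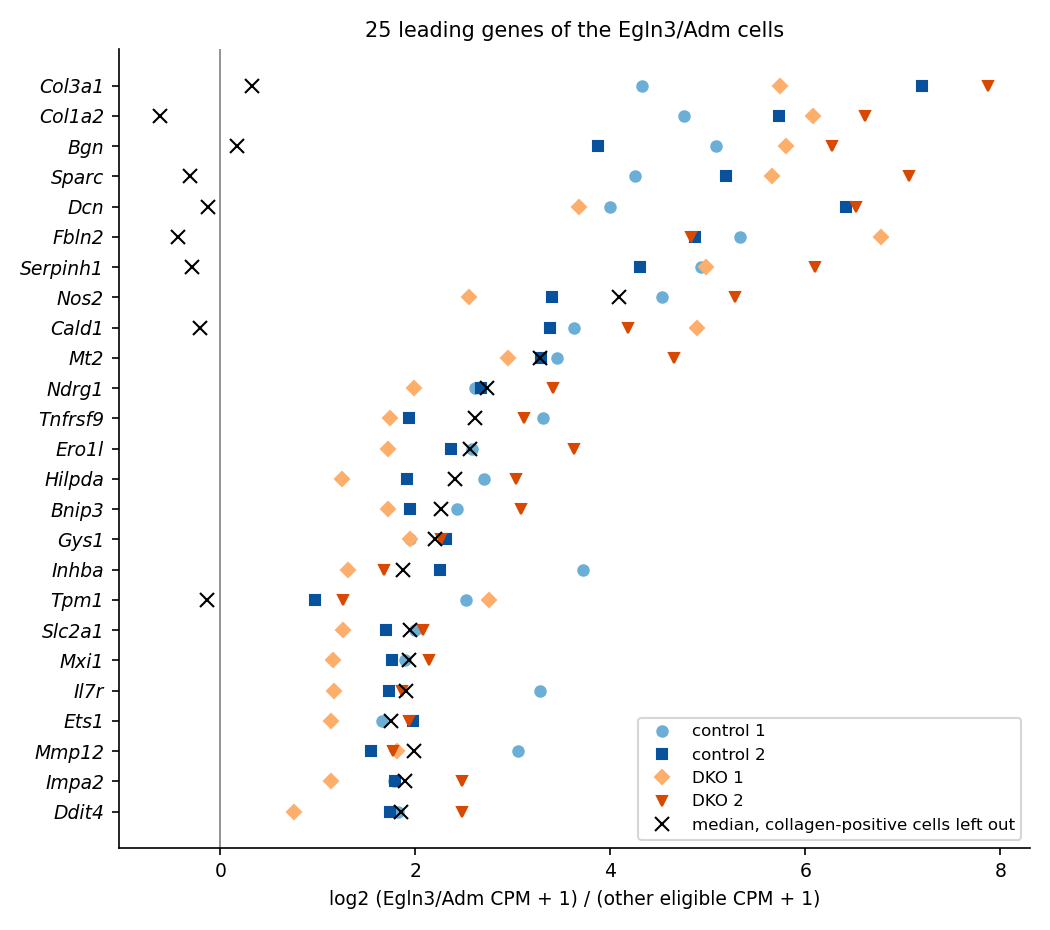
The log2 ratio of CPM + 1 in Egln3/Adm cells over other eligible myeloid cells for the 25 genes with the highest medians, 1 point per library; crosses are the medians without the collagen-positive cells. Col3a1, Col1a2 and the other matrix genes return to between -0.62 and 0.32, whereas Nos2 stays at 4.09 and Mt2 at 3.28.

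Lower in these cells were most genes of settled macrophages and some genes of monocytes. Of 21 macrophage identity genes, 16 were lower in all 4 libraries and none was higher in all 4 (median log2 ratio -0.51; -0.45 with 12 lower and 3 higher without the collagen-positive cells). C1qa was at 2663, 2448, 2502 and 2296 CPM in the other cells, above each of the 4 values in Egln3/Adm cells. The receptor Cx3cr1, at 23.8, 11.9, 42.3 and 83.3 CPM, was among the 10 genes with the lowest ratios (median -1.62), which also included the granzyme Gzma (-3.49), Ifitm6 (-2.22), Retnla (-2.18), the haptoglobin gene Hp (-1.51), Fcrls (-1.48), Cbr2 (-1.46), the chemokine Ccl12 (-1.31) and Fgd2 (-1.24). Gzma is a T and NK cell transcript. Of 16 such transcripts measured, 10 were lower in all 4 libraries (median -1.77), where 24.4% of all genes were. The part of T and NK cell RNA in the other cells was not tested. The 20 monocyte genes went both ways, with 5 higher and 6 lower in all 4 libraries and a median of -0.03 (6, 5 and -0.10 without the collagen-positive cells): Ly6c2 had a median of -0.84 and Ccr2 of -0.51, whereas Vcan had 0.55. Maf, a transcription factor of macrophages, had a median of 0.10 and did not share the lower level.

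Of the 294 cells, 39 held an Adm UMI: 7, 9, 11 and 12 cells, or 9.59, 10.2, 13.6 and 23.1% of each library's Egln3/Adm cells. After the collagen-positive cells were set aside on both sides, 34 with and 251 without Adm remained. Those with Adm had Hmox1 at 1939 CPM against 838 CPM, Mt2 at 651 against 209 CPM, Bnip3 at 968 against 522 CPM and Ndrg1 at 696 against 391 CPM. They had more C1qa (2668 against 1556 CPM), less Egln3 (274 against 457 CPM) and less Lyz2 (1872 against 3601 CPM). These sums over all libraries describe a split on a gene of the rule and were not tested, and cells without Adm had to reach the rule through Egln3.

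Grouping the 294 cells by their other genes gave 6 clusters, which keep numbers because they were made from these cells. Cluster 0 (102 cells) led with Ccl8, Timp2, Gas6, Folr2 and C1qa, genes of resident-type macrophages. Cluster 1 (60 cells) led with Hdc, Cxcr2, Hp and Plac8, and held Mt2 at 4.70 CPM. Cluster 2 (58 cells) led with the chemokine gene Cxcl9 and with Retnla, followed by H2-Eb1, H2-Ab1 and Ciita, genes of antigen presentation. Cluster 3 (41 cells) led with Hspb1, Hspa1b, Il7r, Inhba and Ndrg1 and held Hmox1 at 1941 CPM, Mt2 at 590 CPM and Ndrg1 at 1300 CPM. Cluster 4 (26 cells) led with the interferon-induced genes Cmpk2, Rsad2 and Cxcl10. Cluster 5 (7 cells, median 62158 UMIs) led with Col3a1 and Sparc. Cluster 2 made up 32.9, 6.82, 21.0 and 21.2% of the cells, so that it was rare in control 2, and every cluster had cells from all 4 libraries.

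**Figure D4:**
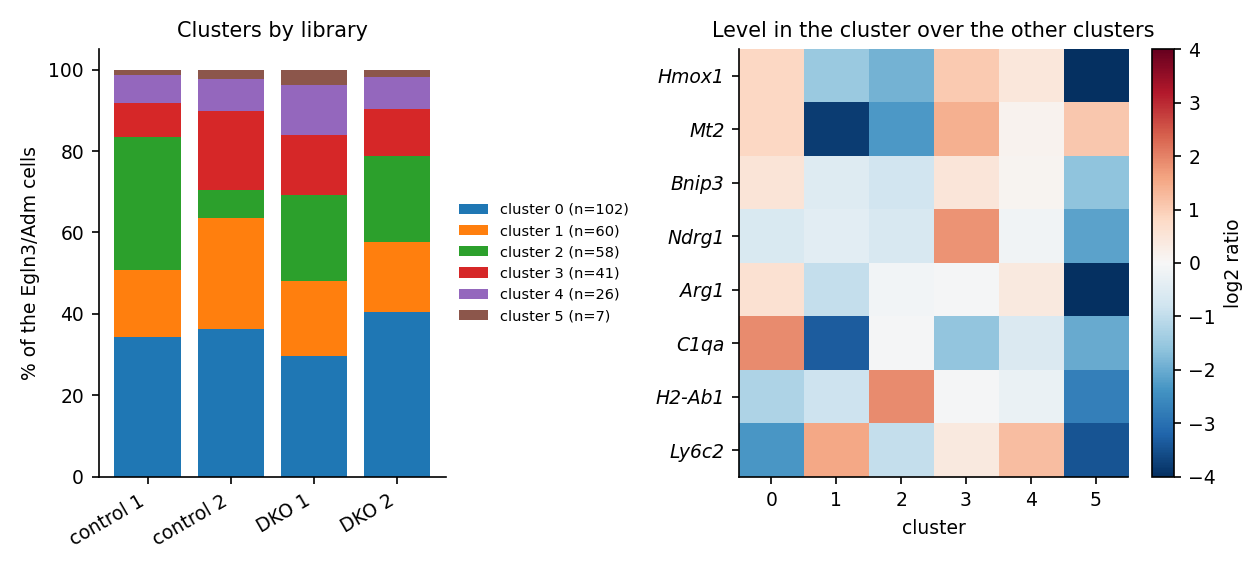
Left, the share of each of the 6 clusters among the Egln3/Adm cells of each library; right, the log2 ratio of a gene's level in each cluster over the other clusters, from blue (lower) to red (higher). Ndrg1 and Mt2 are high in cluster 3, C1qa in cluster 0 and H2-Ab1 in cluster 2, and cluster 2 is smallest in control 2 (6.82%); ratios beyond 4 take the end colour.

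The next comparison asks which genes of the Egln3/Adm cells differed between the tumours without Raldh1 and Raldh3 and the controls. The chemokine gene Cxcl3, whose product draws neutrophils through the receptor CXCR2, was the only gene called. It was at 321, 520, 58.1 and 44.6 CPM, so that both DKO libraries were far below both controls. It fell in DKO by 3.03 ± 0.29 on the log2 scale (edgeR quasi-likelihood test, adjusted p = 0.00057), the only gene called of 7228 (0.0138%). Here and below, ± on a log2 change is the standard error implied by the test statistic, not an SD between libraries. In edgeR 429 genes (5.94%) had an unadjusted p under 0.05, and DESeq2 called 9. Cxcl3 lies on GRCm38 chromosome 5 from 90786103 to 90789600 on the plus strand. The UMIs behind it were 256, 436, 55 and 23, found in 28.8, 33.0, 11.1 and 11.5% of the cells (21.1, 26.8, 10.5 and 11.1% after thinning), against 1.09% of T cells (0.645% thinned). The single richest cell held 31.3, 21.3, 29.1 and 39.1% of them. Cxcl3 was called with any 1 library left out, but the number of genes called was then 61 (control 1 left out), 27 (control 2 left out), 288 (DKO 1 left out) and 120 (DKO 2 left out). Such a fit takes the spread from the group that keeps 2 libraries and assumes that the lone library varies alike.

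In the other eligible myeloid cells Cxcl3 was at 21.0, 91.1, 26.8 and 6.24 CPM, and the groups overlapped (log2 -1.75 ± 1.27, edgeR adjusted p = 0.674). No gene of 11686 was called in those cells, and 1321 (11.3%) had an unadjusted p under 0.05. The Cxcl3 difference between the 2 kinds of cell was -1.55 ± 1.00 (edgeR adjusted p = 1.00), so the lower level was not shown to be particular to the Egln3/Adm cells. Within the clusters Cxcl3 was at 131, 291, 118 and 45.4 CPM in cluster 0, at 575, 1338, 89.0 and 0 CPM in cluster 1, and at 1709, 422, 0 and 0 CPM in cluster 4. In each of these 3 clusters both DKO libraries were below both controls, and in cluster 2 (296, 0, 0 and 29.9 CPM) and cluster 3 (162, 705, 54.7 and 233 CPM) they overlapped. The cells were few: 25, 32, 24 and 21 in cluster 0 and 12, 24, 15 and 9 in cluster 1. Cluster 4 had only 5, 7, 10 and 4, and its control 1 value rested on 82 UMIs. The differences within clusters were not tested.

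Other myeloid genes had low p-values without passing the threshold in edgeR; DESeq2 called the first 2 of them, Lyz2 (adjusted p = 2.1e-07) and Pf4 (adjusted p = 4.5e-05). Lyz2, which encodes lysozyme, was at 4356, 4122, 1788 and 1366 CPM, without overlap between the groups (log2 -1.45 ± 0.26, edgeR adjusted p = 0.097). The chemokine Pf4 was at 1917, 2812, 946 and 954 CPM and the chemokine Ccl3 at 169, 266, 83.5 and 89.1 CPM, both without overlap (log2 -1.34 and -1.37, edgeR adjusted p = 0.117 for each). The C-type lectin receptor Clec4d was at 376, 389, 197 and 163 CPM, again with both controls above both DKO libraries (log2 -1.11, edgeR adjusted p = 0.117). The ectonucleotidase Nt5e (CD73), which makes adenosine, was at 36.4, 39.4, 10.6 and 15.5 CPM (log2 -1.61, edgeR adjusted p = 0.337). These genes were named on condition that the groups did not overlap, so the lack of overlap is no added evidence. Of all genes, 16.6% were lower in both DKO libraries than in both controls. In the other eligible cells Lyz2, Clec4d and Nt5e were also lower in both DKO libraries than in both controls (log2 -0.67, -0.89 and -0.69). Pf4 had a log2 value of -1.27 ± 0.79 there, but its groups overlapped (983, 2392, 1066 and 372 CPM). Ccl3 had a log2 value of 0.08 there, and none of these genes was called in those cells. In the edgeR test of the difference between the 2 kinds of cell, only Ccl3 of these was called. Of the remaining genes named on this side, Hsph1 and Ahsa1 belong to the chaperone system (log2 -1.41 and -1.23), Bcl2a1d is an apoptosis inhibitor with near-identical copies (log2 -1.35), AY036118 lies among ribosomal RNA repeats (log2 -0.99) and Il1rl1 rested on 17, 20, 5 and 2 UMIs.

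On the other side, Txnip, which encodes an inhibitor of glucose uptake and thioredoxin, was at 52.7, 52.5, 122 and 196 CPM, with both DKO libraries above both controls (log2 1.54 ± 0.27, edgeR adjusted p = 0.097). The galactose-type lectin Mgl2 was at 148, 97.8, 257 and 384 CPM (log2 1.34, edgeR adjusted p = 0.117), and the VEGF receptor Flt1 at 52.7, 34.6, 103 and 171 CPM (log2 1.59, edgeR adjusted p = 0.117). Nfkbiz was at 76.5, 95.4, 164 and 233 CPM (log2 1.16, edgeR adjusted p = 0.22), and the growth factor Igf1 at 12.5, 9.54, 38.1 and 46.5 CPM (log2 1.88, edgeR adjusted p = 0.189). None of these 5 overlapped between the groups, but that was a condition for naming them. Of all genes, 19.6% were higher in both DKO libraries than in both controls. In the other eligible cells Txnip, Mgl2, Flt1 and Nfkbiz were also higher in both DKO libraries than in both controls (log2 0.36, 0.85, 0.62 and 0.80). Igf1 had a log2 value of 0.91 there, but its groups overlapped (53.6, 16.2, 52.2 and 80.5 CPM). With all cells kept, none of the 5 was called in those cells or in the edgeR test of the difference between the 2 kinds of cell. The matrix genes Col1a2 and Col5a1 (log2 1.50 and 2.47, edgeR adjusted p = 0.062 for both) were too low to be tested without the collagen-positive cells. DESeq2 called Col1a2 with those cells kept (adjusted p = 0.00074). H2-M2 (3.30), Baiap2 (1.30) and the stromal genes Col5a3, Dnm3os and Pdgfrb were the others named on this side, none of them called. Without those 9 cells 5 genes were called with edgeR: Cxcl3 (log2 -2.95, adjusted p = 0.00041), Lyz2 (-1.36, adjusted p = 0.0198), Pf4 (-1.28, adjusted p = 0.0296), Txnip (1.59, adjusted p = 0.0198) and Mgl2 (1.40, adjusted p = 0.0428).

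**Figure D5:**
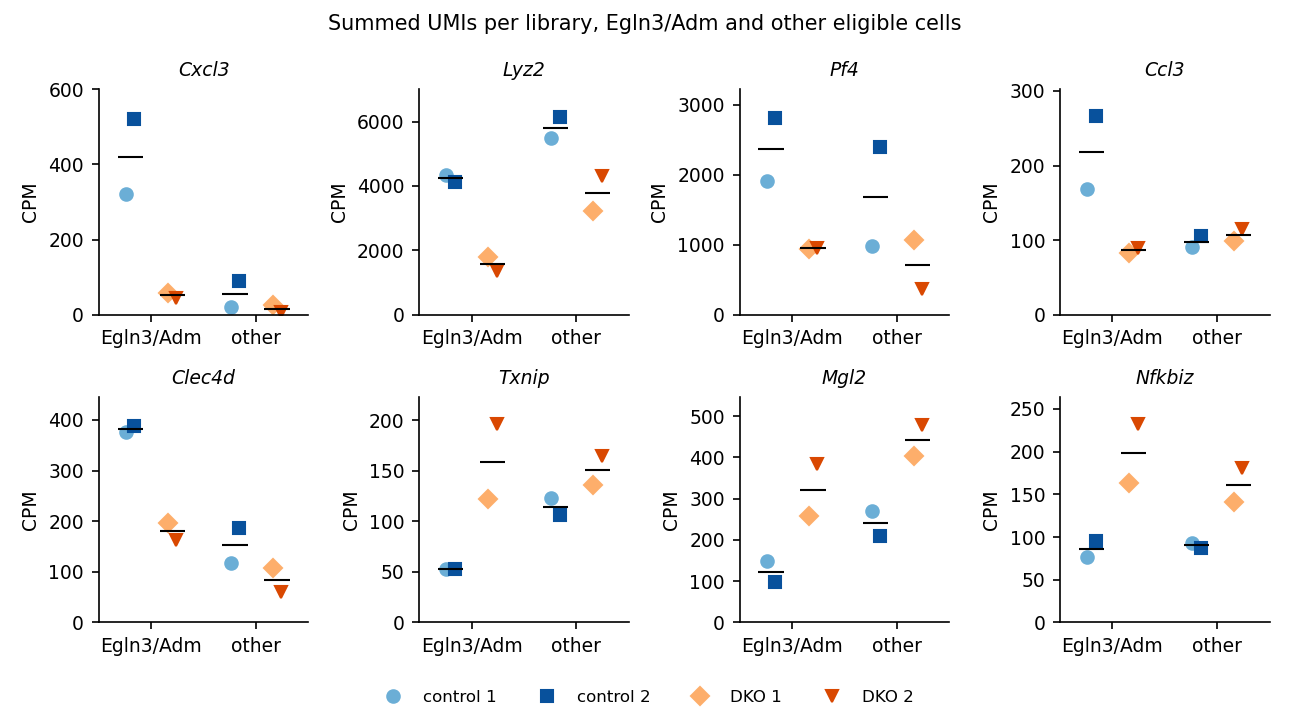
Level (CPM of UMIs summed per library) of 8 genes in Egln3/Adm cells and in other eligible myeloid cells; points are libraries and bars are group means. Cxcl3 is at 321 and 520 CPM in the control and 58.1 and 44.6 CPM in the DKO Egln3/Adm cells, the one gene past the threshold with all cells kept.

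No HIF target was called between the tumours. Of 26 tested, 4 had an unadjusted p under 0.05 with higher levels in DKO and none with lower levels, where 3.24 and 2.7% of all genes did so, and 9 were higher in both DKO libraries than in both controls, where 19.6% of all genes were. The list's median was 0.30, against 0.01 over all genes, and it was 0.18 without the collagen-positive cells and 0.07 without DKO 2. Bnip3 (log2 0.67), Ak4 (1.03), which encodes an adenylate kinase of mitochondria, Bhlhe40 (0.70), a transcriptional repressor, and Plod2 (1.34) were the 4. Plod2 was higher than in the other eligible cells only with the collagen-positive cells kept. Without those cells 24 HIF targets were tested and none was called. Hmox1 and Mt2 had log2 values of 0.75 and 0.70 with DKO 2 the highest library in both, and their groups overlapped. The glycolysis list had a median of 0.05 with 3 genes higher and 1 lower at an unadjusted p under 0.05; the lower one was Eno1, at 409, 672, 371 and 262 CPM (log2 -0.79). The rule itself required HIF target transcripts in both groups.

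No gene of the interferon gamma response was called either. Of 21 genes tested, 7 had an unadjusted p under 0.05 with higher levels in DKO and none with lower levels (3.24 and 2.7% of all genes), and 10 were higher in both DKO libraries than in both controls (19.6% of all genes; median 0.45, and 0.58 without the collagen-positive cells; 0.25 without control 2). Irf1, a transcription factor of this response, was at 143, 90.7, 188 and 310 CPM (log2 1.05), and the guanylate-binding protein gene Gbp4 at 112, 68.0, 182 and 169 CPM (log2 0.95). Cd274, which encodes the checkpoint ligand PD-L1, was at 214, 200, 297 and 324 CPM (log2 0.55). The DKO effect on this list differed by a median of 0.04 between the Egln3/Adm and the other eligible cells. No gene of the list was called for that difference. Of 24 immediate-early and heat-shock genes known to be induced by tissue digestion, 10 were higher in DKO and 1, the heat-shock gene Hsph1, lower at an unadjusted p under 0.05 (3.24 and 2.7% of all genes), with a median of 0.50 (0.25 without DKO 2 and 0.40 without the collagen-positive cells) and summed levels of 15899, 16297, 18711 and 22520 CPM. All 24 were detected, and their part in the interferon list was not tested.

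Among 27 inflammatory cytokine and chemokine genes, 8 had an unadjusted p under 0.05 with lower levels in DKO (2.7% of all genes did), and 1, Nfkbiz, with higher levels (3.24% of all genes). Beside Cxcl3, Pf4, Ccl3 and Clec4d these were Cxcl2, at 2940, 3495, 1857 and 2174 CPM (log2 -0.70), Ccl6 (-1.31), Ccl9 (-1.06) and Inhba, at 301, 180, 141 and 64.0 CPM (-1.20). The list's median was -0.02, so the lower genes were a subset. Il1b, at 1192, 1068, 1299 and 828 CPM, and Ccl2, at 282, 468, 403 and 405 CPM, overlapped between the groups. In the angiogenic and matrix list 4 of 23 were higher and 3 lower at an unadjusted p under 0.05, to be read against the same 3.24 and 2.7%. The anti-angiogenic Thbs1 was at 1879, 2054, 1199 and 760 CPM (log2 -1.03), whereas the collagenase Mmp13 was at 184, 144, 257 and 490 CPM (log2 1.14). Vegfa was at higher levels in both DKO libraries, but by a log2 value of 0.31 with an unadjusted p of 0.187 in edgeR.

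The last comparison asks whether the DKO effect differed between the Egln3/Adm cells and the other eligible myeloid cells of the same libraries. Of 10601 genes, 5 were called (0.0472%), all with a lower value in the Egln3/Adm cells; 444 (4.19%) had an unadjusted p under 0.05 and DESeq2 called 4. Ccl3 was found in 39.7, 42.0, 35.8 and 26.9% of the Egln3/Adm cells; in the other cells it was at 90.3, 106, 99.1 and 115 CPM (difference of log2 changes -1.42 ± 0.22, edgeR adjusted p = 0.0136). The heat-shock gene Hspa1a was at 183, 344, 232 and 132 CPM against 60.4, 68.7, 184 and 141 CPM in the other cells (difference -1.83 ± 0.24, edgeR adjusted p = 0.0030). In the other cells both DKO values were above both controls. An Hspa1a UMI was found in 19.2, 23.9, 43.2 and 40.4% of the Egln3/Adm cells, so detection was more frequent in DKO. The richest cell held 45.9, 21.2, 34.7 and 27.9% of the UMIs.

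The other 3 genes are transcripts of neutrophils that rested on few cells. S100a9, a subunit of calprotectin, was at 77.7, 230, 2.11 and 0 CPM against 33.6, 192, 76.2 and 208 CPM (edgeR adjusted p = 0.0030 for a difference of -7.10 ± 0.66). Its UMIs were 62, 193, 2 and 0 in 3, 11, 2 and 0 cells, and 1 cell held 96.8% of those in control 1. Pooled over libraries, its control to DKO ratio in Egln3/Adm cells was 114, with a counting interval of 31.2 to 946. S100a8, the partner subunit, was at 81.5, 243, 10.6 and 9.69 CPM against 37.3, 185, 64.0 and 175 CPM (difference -4.00 ± 0.40, edgeR adjusted p = 0.00094). G0s2, an inhibitor of lipolysis, rested on 2 cells in each library (28.8, 57.3, 2.11 and 11.6 CPM; difference -3.36 ± 0.54, edgeR adjusted p = 0.0155). Cluster 1 held 60 of 62 and 185 of 193 of the control UMIs of S100a9. Of 14 neutrophil transcripts listed, 11 were detected, with summed levels of 315, 830, 144 and 225 CPM against 206, 580, 342 and 629 CPM in the other cells, and Retnlg was at 0 in 3 of the 4 libraries. The part of neutrophil RNA in these 3 calls was not tested.

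These calls depended on single libraries, cells and the threshold of the rule. The S100a9 value lay between -14.5 (DKO 1 left out) and -5.82 (DKO 2 left out), and that of S100a8 between -4.83 and -3.30. With a minimum of 2 UMIs of Adm and Egln3, S100a9 was at -3.42 and S100a8 at -2.50, and neither was called (edgeR adjusted p = 1.00 for both). S100a9 was not called with a minimum of 5 UMIs either. Without DKO 2 the S100a8 call alone was kept, and without DKO 1 the G0s2 call was lost. Without the collagen-positive cells 7 genes were called, among them Ccl3, S100a8, S100a9 and G0s2 but not Hspa1a (edgeR adjusted p = 0.303). In the higher direction no gene was called with all cells kept; Txnip (difference 1.16, edgeR adjusted p = 0.20) and Cx3cr1 (1.45, edgeR adjusted p = 0.288) led, followed by Cald1, Trim27 (1.30) and Gm26802.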

How the data were processed

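The deposited values were UMI counts per barcode and gene for 4 libraries, made by the authors with Cell Ranger and Seurat 3.1.0 in R 3.6.0, per the submitters' processing notes, which name the builds GRCh38 and mm10; the matrix software was 3.1.0 per the file headers. The filtered matrices held no empty droplets, so free RNA was not subtracted, which can add UMIs of abundant genes to any cell.

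The members and gene lists were chosen with earlier results of these data known. Samples were grouped by their titles. For each library, UMIs were added over the cells of a class, and the sums were fitted by edgeR 4.0.16 in R 4.3.3 (TMM, filterByExpr, robust quasi-likelihood test, Benjamini-Hochberg over all genes tested, threshold 0.05), without a replicate block. The difference of the DKO effect was a class-by-group term with library as block. Shares were compared by exact permutation over libraries. CPM is UMIs scaled to a common total, and ratios of CPM + 1 are on a log2 scale. Sequences came from RefSeq (GRCm38.p6) and gene coordinates from GENCODE vM21 (GRCm38). Clusters came from scanpy 1.11.5 (Leiden, with the rule genes and the genes named for the tests left out). Doublets were ranked with Scrublet at 0.8% per 1000 barcodes and removed in an alternative only. The tests were tested on simulated data.

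Genes named in the text were those of the rule, the targeted genes, the 12 higher and 12 lower genes with the smallest p among those with at least 20 CPM and no overlap between the groups, the 25 leading and the 10 lowest genes at 50 CPM or more, the 5 per direction of the class-by-group test, and members of the lists. A few genes that this rule names are not reported here. Marker genes and the genes leading each cluster were named as well. Alternatives were a minimum of 2 or 5 UMIs of Adm and Egln3, a mitochondrial limit of 5%, doublets removed, DESeq2 1.42.0, other size factors, no filter on low counts, a replicate block, other comparison cells, and each library left out. Leaving out collagen-positive cells and not using Apol7c were chosen after seeing the data.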

Additional observations from a re-analysis of the deposited data

Results flagged for a closer look

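A test of the difference itself set 5 genes apart, whose DKO effect was lower in Egln3/Adm cells than in the other eligible myeloid cells of the same libraries (edgeR class-by-group term, 10601 genes). S100a9 differed by -7.10, with 62, 193, 2 and 0 UMIs in the Egln3/Adm cells of control 1, control 2, DKO 1 and DKO 2. S100a8 differed by -4.00, with 65, 204, 10 and 5 UMIs. G0s2 differed by -3.36 on 23, 48, 2 and 6 UMIs, from 2 cells in each library. Hspa1a differed by -1.83, with 146, 288, 219 and 68 UMIs in 14, 21, 35 and 21 cells. The richest cell held 45.9, 21.2, 34.7 and 27.9% of them, and cluster 3 held 84.9, 71.5, 45.2 and 10.3%. Ccl3 differed by -1.42, with 135, 223, 79 and 46 UMIs in 29, 37, 29 and 14 cells. With 2 libraries in each group no single value was tested as far from its group.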

How the results depend on the processing

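With Cxcl3 the 1 gene called between DKO and control, the count was 11 with at least 2 UMIs of Adm and Egln3, 9 with DESeq2, 97 without a filter on low counts, 5 without the collagen-positive cells, and 27 to 288 with a library left out; Cxcl3 was called in each of these, with log2 values from -2.34 to -3.35. The class-by-group count of 5 became 1 with at least 2 UMIs, 20 with at least 5, 29 without a filter, and 1 to 31 with a library left out. Genes at least 2-fold higher than in other cells numbered 207, not 598, without the collagen-positive cells. The Cx3cr1 class-by-group term of 1.45 became -0.046 with at least 2 UMIs; its cause was not tested. The share among eligible cells kept its direction in every alternative run. Same-numbered libraries did not deviate together (correlations 0.0653 and 0.0420), so the numbers were not taken as pairs; with a replicate block the counts were 9 and 8.

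With 2 pools in each group, 294 cells and at most 945950 UMIs per library, few UMIs stood behind many genes, and calls such as G0s2 rested on single cells. Single tumours could not be compared.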

Other observations

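Of 20 genes of the integrated stress response and of serine and asparagine synthesis, 11 were higher in Egln3/Adm cells than in other eligible cells in all 4 libraries (12.3% of all genes were), with a median log2 ratio of 0.54. Phgdh, the first enzyme of serine synthesis, was at 67.7, 41.7, 51.8 and 15.5 CPM against 7.96, 4.41, 8.38 and 7.39 CPM, and Asns, which makes asparagine, at 21.3, 38.2, 19.0 and 19.4 CPM against 5.51, 4.25, 8.49 and 7.89 CPM. Without the collagen-positive cells 6 genes of the list were higher and 1 was lower in all 4 libraries, and its median was 0.17. The inducible cyclooxygenase Ptgs2 was at 466, 378, 411 and 438 CPM against 144, 143, 294 and 250 CPM, so every Egln3/Adm value was above every other value. Its list of 19 measured immune suppression and repair genes went both ways. In all 4 libraries 6 were higher and 4 lower, where 12.3 and 24.4% of all genes were. The list's median was -0.11 (8, 2 and 0.06 without the collagen-positive cells).

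The retinoic acid genes gave no called difference between DKO and control in these cells: 7 of the 15 listed passed the filter on low counts, none had an unadjusted p under 0.05 in edgeR, and the median log2 value was 0.28 against 0.01 over all genes (0.13 over 6 genes without the collagen-positive cells). The dehydrogenase Dhrs3, a target of retinoic acid, was at 95.3, 134, 147 and 151 CPM, and the receptor gene Rara at 76.5, 90.7, 80.3 and 122 CPM. MHC class II genes gave none either, with 9 tested and a median of 0.15. Genes of oxidative phosphorylation and the TCA cycle were lower in both DKO libraries than in both controls for 10 of 21 (16.6% of all genes were), with a median of -0.24 and none at an unadjusted p under 0.05 in edgeR.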
